A study of Mus musculus with 10 samples.

Results

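The translation factor genes were taken as the protein-coding autosomal genes whose symbol starts with Eif or Eef followed by a digit, with pseudogene symbols left out. In the GENCODE annotation of mm10 (GRCm38.p6), 65 of 20807 protein-coding autosomal genes met this rule. Their chromatin was followed in cultured neural stem and progenitor cells (NSPCs) from C57BL/6 mice at postnatal day 5. Activated NSPCs grew with 20 ng/ml of FGF2 and 20 ng/ml of EGF. Quiescent NSPCs had FGF2 at the same dose, no EGF and 25 ng/ml of the growth factor BMP4, which arrests their cell cycle, for 4 days according to the sample labels, while the study's methods give a shorter time before ATAC-seq. Reactivated NSPCs had 4 days of BMP4 and then 9 to 12 days in the activating medium. ATAC-seq, in which a transposase cuts accessible DNA, had 2 libraries per state, described as biologically independent in the study's methods. H3K4me3, a histone mark of active promoters, was mapped by ChIP-seq in 1 library each of quiescent and activated NSPCs. Primary cultures of this kind hold stem and progenitor cells together, so a difference between states can come from the mixture as well as from each cell, and these cannot be told apart.

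Translation factors carry ribosomes through protein synthesis. Initiation factors (eIF) bring the initiator tRNA and the mRNA cap to the small ribosomal subunit, scan for the start codon and release the subunits to join, and elongation factors (eEF) deliver aminoacyl-tRNAs and move the ribosome along. Supply is controlled at a few of these steps: kinases phosphorylate eIF2 under stress, 4E-binding proteins sequester the cap-binding factor eIF4E, and eEF2 kinase slows elongation. Quiescent neural stem cells are known for low protein synthesis, which increases when they activate.

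The ATAC-seq lists held 55027 and 60881 peaks in the quiescent libraries, 58618 and 47323 in the activated and 106586 and 107137 in the reactivated. Each peak has a fold enrichment, the pileup of fragments at its summit over the local background. Its median was 4.14 and 3.52 in the quiescent, 4.57 and 4.42 in the activated and 4.85 and 4.90 in the reactivated lists. The reactivated lists were longer and their values higher, although their reads had been reduced by the authors before calling, so each comparison with them was made after centring every library on its own median promoter. The lowest pileup that was called was 25 fragments in the second quiescent library and 16 or 17 in the others. A gene without a peak may have had accessibility below this. The second quiescent library also had a background pileup of 12.1, beside 6.01 to 6.61 in the others, so pileups are not comparable between libraries as they stand. All 9 markers of neural stem and progenitor cells had a promoter peak in all 6 libraries. The same held for 3 of 5 astrocyte, 3 of 5 neuronal, 2 of 5 oligodendrocyte-lineage, 0 of 5 microglial and 0 of 5 endothelial markers, and *Cldn5*, *Cdh5*, *Tek*, *Csf1r*, *Aif1*, *Sox10* and *Mog* had no peak in any library. Others of these lists had peaks in part: microglial *P2ry12* in 5 of 6 libraries (up to 9.61) and *Tmem119* in 3, and endothelial *Kdr* in 5 (up to 9.58, with H3K4me3 at 28.6 and 23.6) and *Pecam1* in 2. The part of other cell types in the members' values was not tested.

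Most translation factor promoters were open in every state. A peak within 1 kb of an annotated start was called in all 6 libraries for 59 of 65 genes (90.8%), against 54.5% of all protein-coding autosomal genes, and no peak was called in any library for 3 genes, against 30.0%. H3K4me3 covered the promoter of 61 of 65 genes (93.8%) in both states, against 61.0% of all genes. The summits sat close to the starts, at a median of 37.5 to 46.5 bp per library, and over all genes at 56 to 58 bp. The median fold enrichment of the members with a peak was 9.01 and 8.44 in the quiescent, 10.1 and 8.85 in the activated and 11.6 and 12.7 in the reactivated libraries. These medians stood at the 88.2 to 92.0 percentile of all peaks of the same library, and the medians of all genes with a promoter peak at the 82.3 to 89.0 percentile.

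**Figure D1:**
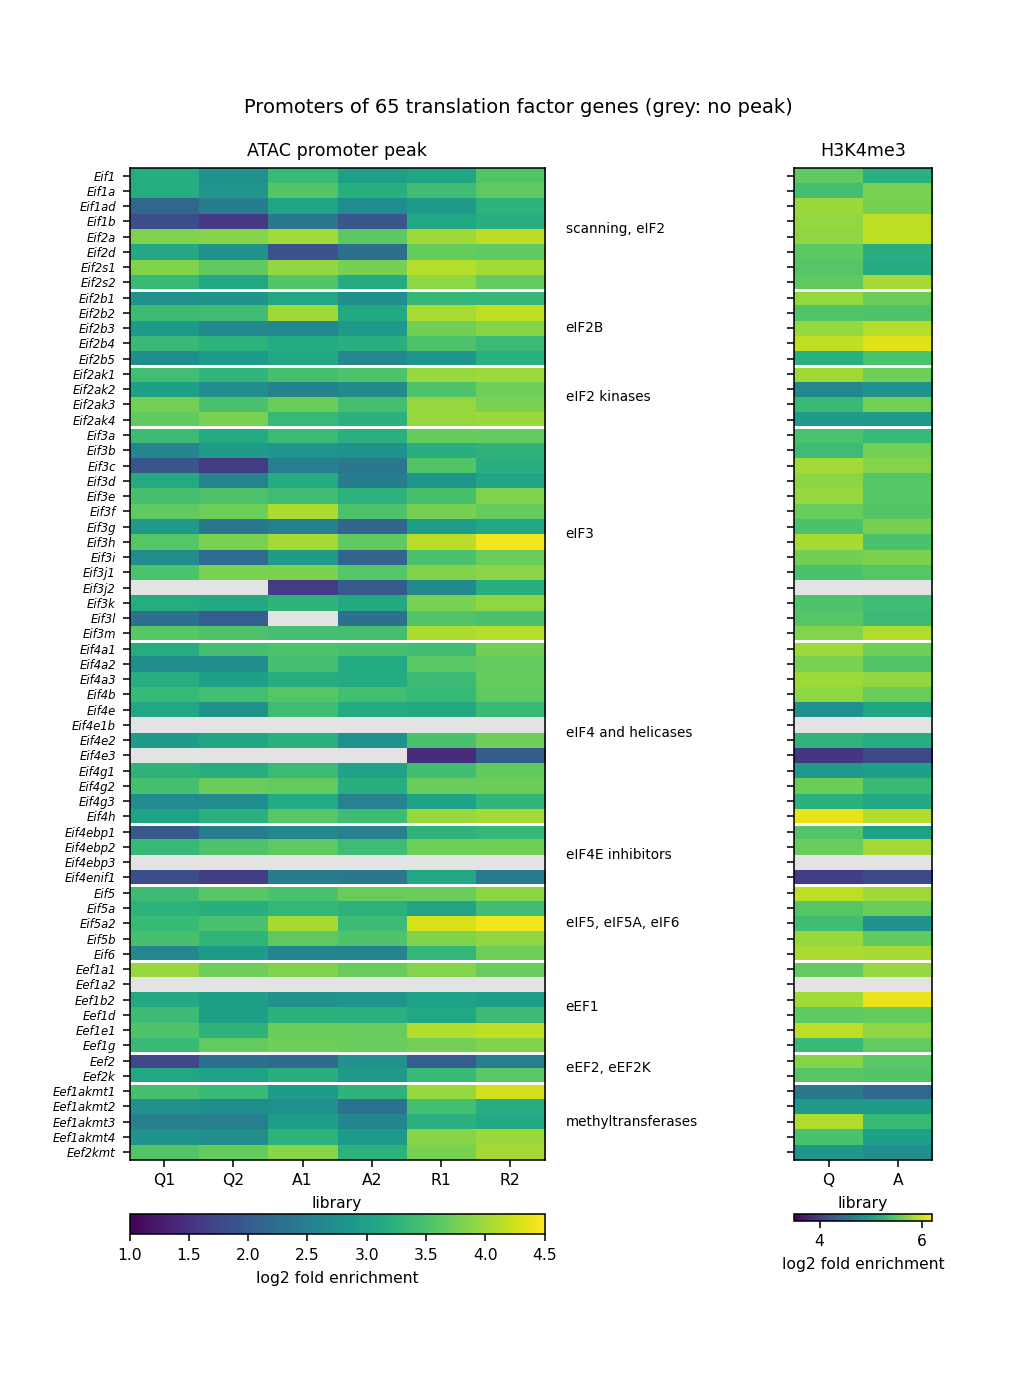
Promoter peaks of the 65 translation factor genes, ordered by role, with the log2 of the highest ATAC fold enrichment within 1 kb of a start in 2 quiescent (Q), 2 activated (A) and 2 reactivated (R) libraries on the left, and of H3K4me3 in 1 quiescent and 1 activated library on the right. Grey cells have no peak: *Eef1a2*, *Eif4e1b* and *Eif4ebp3* are grey throughout, while *Eif3j2*, *Eif3l* and *Eif4e3* are grey in part.

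The factors of scanning and of the ternary complex, which carry the initiator tRNA to the start codon, had promoter peaks in all 6 libraries at 8 of 8 genes. *Eif2a*, an alternative carrier of initiator tRNA, had fold enrichments of 14.2 and 14.6 in quiescent NSPCs, 16.1 and 12.2 in activated and 16.0 and 17.5 in reactivated NSPCs. *Eif2s1*, the eIF2 subunit that stress kinases phosphorylate, had 14.3 and 12.5, 15.3 and 13.7, and 17.3 and 16.2. With *Eif3h*, a subunit of the eIF3 scaffold on the small ribosomal subunit (11.9 and 13.8, 16.3 and 12.5, 17.6 and 21.6), these were the 3 members with the highest mean percentile over the 6 libraries, between 98.4 and 98.5. The 5 subunits of eIF2B, which reloads eIF2 with GTP, ranged in mean percentile from 79.4 to 95.6, with *Eif2b2* highest. The 4 eIF2 kinases ranged from 82.0 to 96.2, with *Eif2ak3*, the kinase of endoplasmic reticulum stress, highest at 13.6 and 11.3, 13.0 and 11.1, and 15.4 and 13.8.

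In the eIF3 group, 12 of 14 genes had a peak in every library. The cap-binding complex and its helicases had 10 of 12, with *Eif4g2*, a relative of the eIF4G scaffold, highest. The inhibitors of eIF4E had 3 of 4, with *Eif4ebp2* highest at a mean percentile of 94.5. The factors of subunit joining and eIF5A had 5 of 5, with *Eif5a2* highest at 97.1, and the methyltransferases of elongation factors 5 of 5, with *Eef2kmt* highest at 96.1. The eEF1 group, which delivers aminoacyl-tRNAs, had 5 of 6, with *Eef1a1* highest at 97.0. *Eef2*, the translocase, and *Eef2k*, its kinase, both had peaks in every library.

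The 3 lowest of the 59 were *Eif1b*, *Eef2* and *Eif4enif1*, with mean percentiles of 54.5, 54.6 and 56.5. *Eef2* had fold enrichments of 3.36 and 4.89 in quiescent NSPCs, 4.57 and 6.84 in activated and 4.18 and 5.67 in reactivated NSPCs, and these ranges overlap. Its H3K4me3 enrichment was 51.8 in quiescent and 45.4 in activated NSPCs, above the median of the members (46.3 and 45.2). The promoter with among the weakest ATAC peaks of the group was thus not weak in the mark. In the printed sequences, all from RefSeq windows on GRCm38.p6 and running from 120 bases before to 20 bases after the RefSeq start, capitals mark the matches to the motifs searched. *Eef2* is shown for its TATAAA match in a low peak, and *Eif1b* for its GGGCGG and CACGTG matches.
Eef2 chr10:81176511-81176650 (plus strand): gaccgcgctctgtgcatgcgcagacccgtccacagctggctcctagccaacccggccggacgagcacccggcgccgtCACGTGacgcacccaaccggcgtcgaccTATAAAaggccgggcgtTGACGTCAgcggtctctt
Eif1b chr9:120492486-120492625 (plus strand): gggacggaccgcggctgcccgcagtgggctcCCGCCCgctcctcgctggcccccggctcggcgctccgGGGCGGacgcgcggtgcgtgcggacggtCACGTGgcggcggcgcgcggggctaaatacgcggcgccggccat

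In all, 6 members lacked a promoter peak in at least 1 library. *Eef1a2* (chr2:181147653-181157014, minus strand), the eEF1A paralog of mature neurons and muscle, *Eif4e1b* (chr13:54783998-54788459, plus strand), an eIF4E homolog of oocytes, and *Eif4ebp3*, a 4E-binding protein, had neither an ATAC nor an H3K4me3 peak at a start in any library. For *Eif4ebp3* this depends on the window. With 2 kb either side it had a peak in all 6 libraries, at a site 1871 bp from its 5′ end. It was then called lower in reactivated than in activated and in quiescent NSPCs. *Eif4e3* (chr6:99625135-99666771, minus strand), a distant eIF4E homolog, had a peak only in the reactivated libraries, at 2.73 and 4.04, a pattern of 3.57% of all genes. Its H3K4me3 enrichment was 15.2 in quiescent and 17.2 in activated NSPCs, so the mark was present where no ATAC peak was called. Another protein-coding gene, *Gm20696*, has a start in the same window.

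*Eif3j2*, a short copy of the eIF3 subunit gene *Eif3j1*, had no peak in the quiescent libraries, 3.05 and 3.99 in the activated and 6.40 and 9.04 in the reactivated, a pattern of 0.928% of all genes. The pileups behind these values were 22 and 27 and then 47 and 67 fragments, and 677 of the 2001 bases of its promoter window align to other places in the genome, although no summit fell within them. Other members had such copied bases too, the most at *Eef1a1* (1257 of 6225) and *Eif4a1* (849 of 5768), also with no summit within them. *Eif3j2* carried no H3K4me3 peak in either state. *Eif3l* (chr15:79075179-79094405, plus strand), an eIF3 subunit, had 4.86 and 4.13 in the quiescent libraries, no peak in the first activated library and 4.85 in the second, and 11.7 and 11.3 in the reactivated; 3.40% of all genes had a peak in 5 of 6 libraries. Its reactivated values as deposited stood above all its others, and H3K4me3 was 45.0 in quiescent and 40.9 in activated NSPCs. With 1 missing value *Eif3l* did not enter the limma test; without the first activated library it did, and was called higher in reactivated than in quiescent NSPCs.

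*Eef1a2*, with no peak, and *Eif3l*, with a missing one, are shown for comparison. Both have a GGGCGG match, and *Eif3l* also has CCAAT and CCGGAAG.
Eef1a2 chr2:181156996-181157135 (minus strand): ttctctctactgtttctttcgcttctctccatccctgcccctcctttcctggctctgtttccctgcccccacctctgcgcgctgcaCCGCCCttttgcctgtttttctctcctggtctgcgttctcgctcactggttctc
Eif3l chr15:79075103-79075242 (plus strand): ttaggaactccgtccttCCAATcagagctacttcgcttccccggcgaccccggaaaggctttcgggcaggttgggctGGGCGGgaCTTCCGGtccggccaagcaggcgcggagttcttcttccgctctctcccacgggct

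Several genes have starts in more than 1 place, and the peaks were not spread evenly over them. Starts whose windows overlap were joined into groups, and 38 of 65 members had more than 1 group. The group at the 5′ end of the gene had a peak in all 6 libraries for 56 of 65 members (86.2%, all genes 50.8%), and 6 of 67 further groups did (8.96%, all genes 7.13%). At *Eef1a1* (chr9:78478449-78489151, minus strand), the most 5′ annotated start had no peak in the quiescent libraries, 3.32 and no peak in the activated and 7.20 and 9.83 in the reactivated. The group of starts 7427 bp further in had 15.5 and 13.3, 14.3 and 12.8, and 14.6 and 12.8. H3K4me3 stood at 7.21 and 8.97 at the first and at 46.9 and 54.6 at the second, in quiescent and activated NSPCs.

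At *Eif4enif1*, which encodes the 4E-T transporter of eIF4E, the pattern ran the other way. The 5′ group carried H3K4me3 at 16.0 and 17.3, but its ATAC peaks were called only in the first activated library (2.65) and in the reactivated (6.16 and 5.46). The only start with a peak in all 6 libraries lay 31827 bp inside the gene and had no H3K4me3, at 3.55 and 3.13, 5.57 and 5.28, and 8.57 and 4.92. Its place among the 59 therefore rests on an internal site. At *Eef2k*, the 5′ group had 6.38 and 6.33 in quiescent NSPCs, 9.27 and 7.44 in activated and 10.3 and 12.2 in reactivated NSPCs. A start 8358 bp inside had 8.56 and 8.17, then 5.42 and 5.72, then 10.2 and 11.0.

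The starts of *Eef2k* thus differed in order, the 5′ group being lowest in the quiescent libraries and the internal start in the activated. The highest value per library, used in the test and in the percentiles, mixes them. It comes from the internal start in the quiescent libraries and from the 5′ group in the others. The difference of *Eef2k* between activated and quiescent NSPCs (-0.17, limma adjusted p = 0.568) therefore compares different starts. *Eif4g1*, the main scaffold of the cap-binding complex, had no peak at its most 5′ start. The group 4410 bp inside had 9.61 and 9.07, 10.5 and 8.11, and 10.8 and 11.0, with H3K4me3 at 30.9 and 32.8. A group 9963 bp inside, without H3K4me3, had 4.21 and 2.60, 7.43 and 6.56, and 10.5 and 12.5, with no overlap between the states as deposited. *Eif3b* had a further peak 20614 bp inside, also without H3K4me3, at 4.18 and 5.21, 5.30 and 4.39, and 7.70 and 7.62. Differences between starts were not tested.

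**Figure D2:**
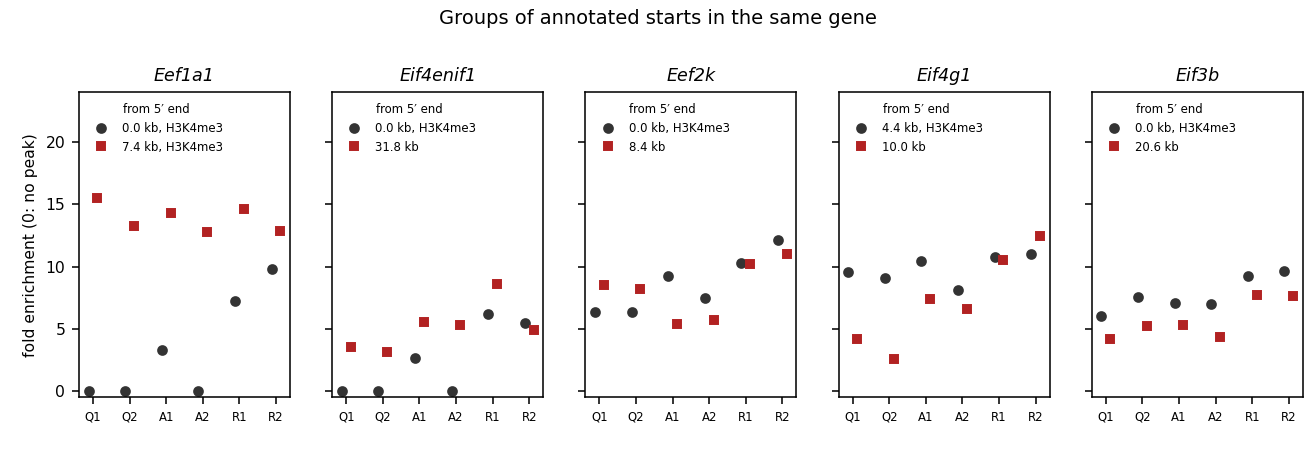
ATAC fold enrichment at groups of annotated starts within 5 genes, by library (Q quiescent, A activated, R reactivated; 0 stands for no peak), with the distance of each group from the 5′ end of the gene and H3K4me3 named where it was called in both states. The internal group of *Eef1a1* stays between 12.8 and 15.5 while its 5′ start has no quiescent peak, and the group 9963 bp inside *Eif4g1* goes from 2.60 to 12.5.

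The comparison of activated with quiescent NSPCs sets cells in growth medium that had no BMP4 beside cells held in BMP4. Fold enrichment on the log2 scale was centred on the median promoter of each library and fitted with limma over 11331 genes with a peak in all 6 libraries, 59 of them members. Only *Eif2d* was called, and it was lower in activated NSPCs: 1 of 59 members was lower, against 0.556% of all genes, and 0 were higher, against 1.07% (1.62% of all genes in either direction). At an unadjusted p under 0.05, 11 members passed (18.6%), beside 17.4% of all genes. *Eif2d* (chr1:131153181-131187658, plus strand) encodes ligatin, a factor that can place initiator tRNA without GTP and helps to recycle ribosomal subunits. Its fold enrichments were 8.68 and 6.88 in quiescent NSPCs, 3.71 and 4.85 in activated and 12.8 and 12.5 in reactivated NSPCs, with no overlap between any of the states as deposited. After centring, its quiescent and reactivated values overlapped (difference 0.05, adjusted p = 0.875).

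The log2 difference of *Eif2d* was -1.02 (SE 0.20, limma adjusted p = 0.0376), and it kept its sign with no centring (-0.86, adjusted p = 0.0264). Leaving out any 1 of the 6 libraries lost the call, with adjusted p from 0.056 to 0.162 and differences from -1.33 to -0.71. The pileups behind the peaks were 65 and 89, 27 and 33, and 95 and 93 fragments, so the activated values rest on few fragments. These pileups are not scaled between libraries, and the second quiescent library had the highest background. H3K4me3 at the same promoter was 45.7 in quiescent and 36.5 in activated NSPCs. The median difference of the members was -0.08, with 41 of 59 below 0 (69.5%), beside -0.03 and 54.7% over all genes tested. The promoter of *Eif2d* is shown because it was called in this comparison and in the next, and it has a GGGCGG match.
Eif2d chr1:131153087-131153226 (plus strand): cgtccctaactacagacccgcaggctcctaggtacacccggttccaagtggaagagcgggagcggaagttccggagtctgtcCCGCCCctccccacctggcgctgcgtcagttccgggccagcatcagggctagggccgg

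Reactivated NSPCs were next compared with activated NSPCs, which had the same medium but no earlier BMP4. This comparison and the next share libraries with the first, so their values are not independent of it. With centring, 1 of 59 members was higher in reactivated NSPCs, against 7.02% of all genes, and 4 were lower, against 5.33%. The higher gene was again *Eif2d* (log2 difference 1.07, SE 0.20, adjusted p = 0.0133). The lower genes were *Eif5a*, which helps ribosomes through difficult peptide bonds (-0.56, SE 0.15, adjusted p = 0.0400), *Eif4b*, a cofactor of the eIF4A helicase (-0.52, SE 0.14, adjusted p = 0.0423), *Eif4e*, the cap-binding protein (-0.54, SE 0.15, adjusted p = 0.0402), and *Eif3f*, an eIF3 subunit (-0.57, SE 0.16, adjusted p = 0.0417).

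The fold enrichment of these genes as deposited was only slightly lower. *Eif4b* had 10.3 and 10.9 in quiescent NSPCs, 11.9 and 10.8 in activated and 10.1 and 12.4 in reactivated NSPCs. *Eif3f* had 12.5 and 13.3, 16.9 and 11.5, and 13.8 and 12.7. *Eif4e* had 8.47 and 6.95, 10.7 and 8.85, and 8.72 and 10.2. For each of these genes the activated and reactivated ranges overlap, while the median tested promoter was 0.48 higher on the log2 scale in reactivated NSPCs before centring. With no centring 19 members were higher (32.2%), against 49.5% of all genes, and 0 were lower, so no downward call was made without centring. Leaving out the first or the second reactivated library left no member called (11 and 12 at an unadjusted p under 0.05, or 18.6% and 20.3%, beside 18.4% and 19.7% of all genes). Without the first activated library 2 were higher (3.33%, all genes 5.31%) and 1 lower (1.67%, all genes 2.76%), and without the second 3 were higher (5.08%, all genes 3.18%) and 0 lower (all genes 0.889%). With the pileup over the genome-wide background in place of the local one, *Eif3f* and *Eif4b* kept their calls. *Eif2d* (0.52, adjusted p = 0.162), *Eif5a* (-0.58, adjusted p = 0.0717) and *Eif4e* (-0.28, adjusted p = 0.373) were not called, while *Eif2b1* was called lower (-0.61, adjusted p = 0.0441). In total 3 of 59 members were then lower (5.08%, all genes 2.82%) and 0 higher (all genes 3.17%). The members' median was -0.16, with 41 of 59 below 0, beside -0.03 and 53.3% over all genes.

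The promoters of *Eif4b*, *Eif3f* and *Eif4e* are printed for the range of sequence among genes called together. *Eif3f* has the lowest GC content of the 49 members with a RefSeq window (46.0%) and CCAAT as well as E-box and TATAAA matches, *Eif4e* has an E-box (CACGTG) and a CCAAT match, and *Eif4b* has GGGCGG.
Eif4b chr15:102073653-102073792 (plus strand): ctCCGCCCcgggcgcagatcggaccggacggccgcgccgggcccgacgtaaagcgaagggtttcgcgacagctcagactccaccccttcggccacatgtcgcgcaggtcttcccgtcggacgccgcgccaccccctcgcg
Eif3f chr7:108934295-108934434 (plus strand): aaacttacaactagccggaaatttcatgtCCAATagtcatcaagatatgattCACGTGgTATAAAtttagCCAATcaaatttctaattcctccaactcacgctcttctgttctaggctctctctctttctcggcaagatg
Eif4e chr3:138527148-138527287 (plus strand): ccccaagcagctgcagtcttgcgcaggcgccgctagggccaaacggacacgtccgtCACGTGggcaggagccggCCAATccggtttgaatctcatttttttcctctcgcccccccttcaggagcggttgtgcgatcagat

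Reactivated against quiescent NSPCs gave the most calls. With centring, 3 of 59 members were higher in reactivated NSPCs (5.08%), against 12.9% of all genes, and 11 were lower (18.6%), against 13.5%. In both directions together 14 of 59 members were called (23.7%), against 26.5% of all genes, a share near the background with this measure. *Eif3c*, a core eIF3 subunit (chr7:126546455-126566411, minus strand), had 3.81 and 3.06 in quiescent NSPCs, 5.70 and 5.28 in activated and 11.7 and 9.18 in reactivated NSPCs (log2 difference 0.94, SE 0.18, adjusted p = 0.00710). *Eif1b*, a paralog of the start codon factor *Eif1* (chr9:120492232-120495330, plus strand), had 3.55 and 2.98, 5.21 and 3.85, and 8.49 and 9.16 (0.78, SE 0.15, adjusted p = 0.00745).

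*Eef1akmt4*, a methyltransferase of eEF1A, had 7.01 and 6.60, 9.61 and 7.52, and 14.5 and 15.7 (0.49, SE 0.14, adjusted p = 0.0265), and it shares its promoter window with *Alg3* and *Gm49333*. Such sharing with another protein-coding gene was found for 15 of 65 members. Among the genes called lower below it holds for *Eef1b2* (*Ndufs1*), *Eef1d* (*Tigd5*), *Eif2a* (*Serp1*) and *Eif2b4* (*Snx17*). Both as deposited and after centring, the states stood without overlap in the order quiescent, activated, reactivated in each of *Eif3c*, *Eif1b* and *Eef1akmt4*, which were chosen for the difference between the outer states. That order was found after centring in 3 of 59 members (5.08%), beside 5.45% of all genes tested, and as deposited in 11 (18.6%), beside 27.8%. With the genome-wide background, *Eif1b* was called (0.60, adjusted p = 0.0396), and *Eif3c* (0.33, adjusted p = 0.259) and *Eef1akmt4* (0.32, adjusted p = 0.218) were not. The promoter of *Eif3c* is shown for its repeated CCGGAAG match.
Eif3c chr7:126566347-126566486 (minus strand): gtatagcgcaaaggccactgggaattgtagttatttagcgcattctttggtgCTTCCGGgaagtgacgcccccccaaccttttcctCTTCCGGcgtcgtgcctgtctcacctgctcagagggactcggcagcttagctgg

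Of the 11 lower genes, 3 belong to the eEF1 complex, and 5 of its 6 genes were tested, with a median difference of -0.61. Over all genes tested 13.5% were lower, with a median of -0.04. Whether the group differed from all genes was not tested. *Eef1a1*, the GTPase that brings aminoacyl-tRNA to the ribosome, had 15.5 and 13.3 in quiescent NSPCs, 14.3 and 12.8 in activated and 14.6 and 12.8 in reactivated NSPCs (-0.73, SE 0.15, adjusted p = 0.00939). *Eef1b2*, a subunit of its nucleotide exchange factor, had 8.63 and 7.88, 6.92 and 7.10, and 8.20 and 7.77 (-0.71, SE 0.15, adjusted p = 0.0101). *Eef1d*, another exchange subunit, had 10.5 and 7.95, 9.52 and 9.37, and 8.53 and 10.5 (-0.61, SE 0.17, adjusted p = 0.0258). As deposited, the quiescent and reactivated ranges of the 3 genes overlap, whereas the median tested promoter was 0.62 higher in reactivated NSPCs.

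The other eEF1 genes tested, *Eef1g* (-0.37, adjusted p = 0.0993) and *Eef1e1* (0.06, adjusted p = 0.792), did not pass. *Eef1a1* was not called with the genome-wide background (-0.31, adjusted p = 0.259), nor was *Eef1d* (-0.66, adjusted p = 0.0540), whereas *Eef1b2* (-0.80, adjusted p = 0.00805) and *Eef1g* (-0.70, adjusted p = 0.0358) were. Both promoters are printed as the eEF1 genes with the largest differences. *Eef1a1* has GGGCGG just before the start, and *Eef1b2* has CCGGAAG at it.
Eef1a1 chr9:78481705-78481844 (minus strand): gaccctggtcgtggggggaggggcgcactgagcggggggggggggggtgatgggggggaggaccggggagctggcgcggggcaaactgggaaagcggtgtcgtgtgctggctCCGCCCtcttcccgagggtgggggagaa
Eef1b2 chr1:63176711-63176850 (plus strand): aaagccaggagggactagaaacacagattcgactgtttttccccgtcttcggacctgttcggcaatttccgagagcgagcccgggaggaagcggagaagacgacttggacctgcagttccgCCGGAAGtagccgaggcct

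The remaining lower genes were *Eif5a* (-0.66, SE 0.15, adjusted p = 0.0128), *Eif3f* (-0.62, SE 0.16, adjusted p = 0.0189), *Eif4b* (-0.58, SE 0.14, adjusted p = 0.0173), *Eif4g2* (-0.54), *Eif2b4*, the delta subunit of eIF2B (-0.52), *Eif3e* (-0.51), *Eif3j1* (-0.45) and *Eif2a* (-0.44), the last 5 with adjusted p from 0.0276 to 0.0491. *Eif3j1* lost its call in 13 of the alternatives and kept it in 5, and *Eif2a* in 9 and 9. With the genome-wide background 6 of the 14 calls were kept, and *Eif4g2*, *Eif2b4*, *Eif3j1* and *Eif2a* were among those lost (adjusted p from 0.0838 to 0.833). That alternative called 7 other members, *Eif4enif1* and *Eif4ebp1* higher and *Eif2b5*, *Eif2b1*, *Eif3d*, *Eef1g* and *Eif3g* lower, so that 3 were higher (5.08%), against 7.80% of all genes, and 10 lower (16.9%), against 7.23%. The *Eif4enif1* call mixes different peaks. Its quiescent pileups (26 and 40) come from the internal start, and that of the second reactivated library (217) from the 5′ group. With the local background the lower share was 18.6%, against 13.5%. How far the members stood from all genes in downward calls thus depends on the background used, and this was not tested. The deposited values of these lower genes were nearly level. *Eif5a* had 9.59 and 9.26 in quiescent NSPCs, 9.96 and 9.63 in activated and 8.27 and 10.7 in reactivated NSPCs. With no centring 30 members were higher (50.8%), against 66.5% of all genes, and 0 lower, and 8 of the 11 lower genes had a difference above 0, from 0.04 to 0.22. Without the first reactivated library no member was called (13 at an unadjusted p under 0.05, or 22.0%, beside 27.0% of all genes), and without the second 1 was higher (*Eif3c*, against 3.43% of all genes) and 1 lower (*Eif5a*, against 2.14%). Leaving out the second quiescent library left 5 lower members (8.47%, all genes 5.46%), and leaving out the first left 7 (11.9%, all genes 8.77%). The members' median was -0.20, with 40 of 59 below 0 (67.8%), beside -0.04 and 53.5% over all genes.

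**Figure D3:**
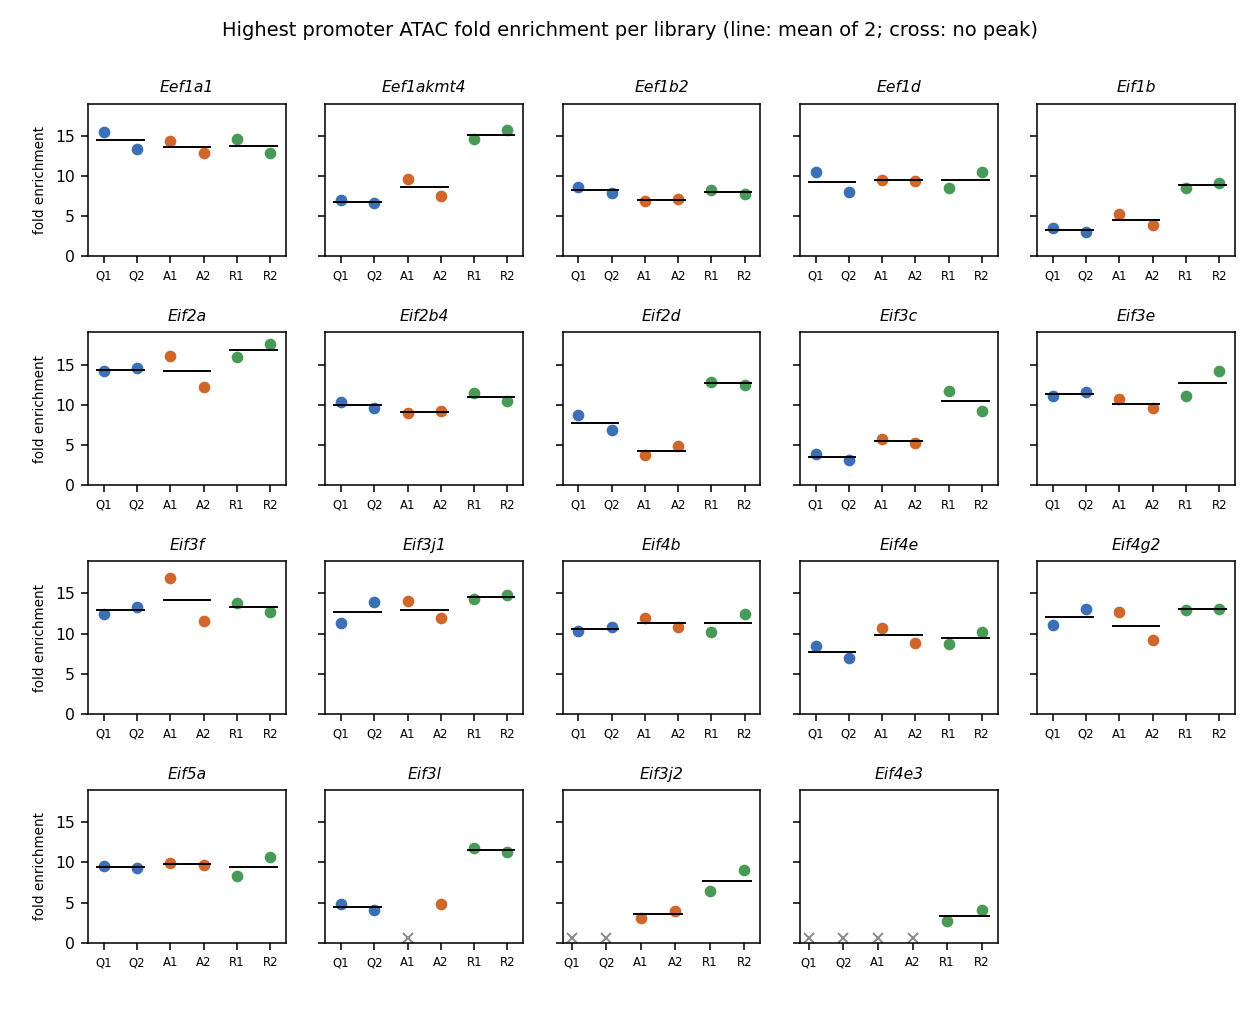
Highest promoter ATAC fold enrichment in each library for the 16 members called in a comparison and for *Eif3l*, *Eif3j2* and *Eif4e3*, with points for libraries, lines for the mean of 2 libraries and crosses for no peak. *Eif1b*, *Eif3c* and *Eef1akmt4* step up from quiescent to reactivated, *Eif2d* is lowest in activated, and *Eef1a1*, *Eef1b2* and *Eif5a* stay nearly level.

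**Figure D4:**
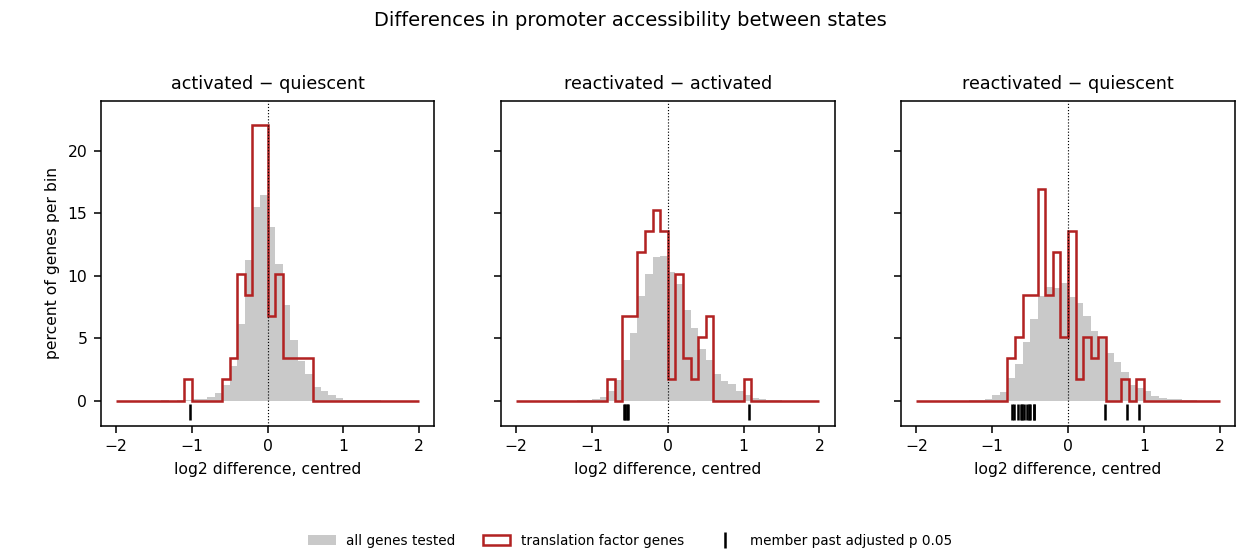
Distribution of centred log2 differences in promoter fold enrichment for the 59 members tested (red outline) and all 11331 genes tested (grey), as percent of genes per bin, with ticks for members past the adjusted p of 0.05. The members' medians are -0.08, -0.16 and -0.20 from left to right, and those of all genes -0.03, -0.03 and -0.04.

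H3K4me3 at the promoters was compared between 1 activated and 1 quiescent library, so its differences have no replicate check and no test. Centred on all genes, 11 of 61 members were more than 25% higher in activated NSPCs (18.0%), against 11.1% of all genes with a peak in both states, and 2 were higher in quiescent NSPCs (3.28%), against 12.8%. These counts depend on the centring: as deposited, the median over all genes was -0.12 on the log2 scale, and with no centring 0 members were past this threshold in activated NSPCs, against 4.79% of all genes, and 7 in quiescent (11.5%), against 22.6%. The members' median was 0.04 with centring and -0.08 without. The 11 genes came from most roles: *Eef1a1* (46.9 in quiescent and 54.6 in activated), *Eef1b2* (56.5 and 69.6) and *Eef1g* (39.9 and 47.0) of eEF1, and *Eif3b* (41.0 and 49.5) and *Eif3g* (42.9 and 50.0) of eIF3.

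The others were *Eif1a* (42.5 and 50.3), which promotes scanning, *Eif2s2* (46.3 and 57.2), the beta subunit of eIF2, *Eif2b5* (37.0 and 43.3), the catalytic subunit of eIF2B, *Eif2ak3* (40.3 and 49.7), *Eif4e* (29.0 and 34.2) and its inhibitor *Eif4ebp2* (47.8 and 57.2). The eEF1 group had the highest group median, 0.33 over 5 genes. The 2 genes higher in quiescent NSPCs were *Eef1akmt3*, a methyltransferase of eEF1A that shares its window with *Mettl1* (58.7 and 40.2), and *Eif5a2* (41.3 and 29.5). The mark was broad at the members, with a median width of 2693 bp in quiescent and 2540 bp in activated NSPCs, beside 2182.5 and 2051 bp over all genes. It was widest at *Eef1a1* in quiescent (4678 bp) and at *Eif4a2* in activated NSPCs (5627 bp).

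Paralogs were set side by side by their promoters, in fold enrichment as deposited. *Eef1a1* had a strong peak in every library and *Eef1a2* none. *Eif1* had 8.97 and 6.97 in quiescent NSPCs, 10.4 and 7.98 in activated and 8.42 and 11.7 in reactivated NSPCs, ranges that overlap, whereas its paralog *Eif1b* went from 2.98 to 9.16 without overlap. *Eif5a* stood between 8.27 and 10.7 in all libraries, and *Eif5a2*, the less widely expressed form, had 10.3 and 11.3, 16.5 and 10.5, and 19.6 and 21.6. *Eif5a2* did not pass the test (0.27 against quiescent, adjusted p = 0.239).

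The helicases *Eif4a1* (9.00 and 11.1, 11.4 and 11.2, 10.8 and 13.5) and *Eif4a2* (6.70 and 6.57, 10.9 and 8.84, 12.2 and 12.6) differed in that the values of *Eif4a2* were separate between all states and those of *Eif4a1* in reactivated NSPCs overlapped both other states, and neither passed the test. After centring, *Eif4a2* was lower in reactivated (0.04 and -0.003) than in activated NSPCs (0.22 and 0.15). *Eif4e* and *Eif4e2*, a cap-binding repressor (7.64 and 8.40, 9.46 and 6.84, 11.3 and 13.4), had peaks in all libraries and *Eif4e3* only in the reactivated. *Eif3j1* (11.4 and 14.0, 14.0 and 11.9, 14.3 and 14.8) had peaks in all libraries and *Eif3j2* in none of the quiescent. Among the 4E-binding proteins, *Eif4ebp1* had 3.96 and 5.58, 6.16 and 5.75, and 9.66 and 10.1, *Eif4ebp2* 10.2 and 11.6, 12.3 and 10.7, and 13.3 and 13.5, and *Eif4ebp3* no promoter peak. As deposited the states did not overlap at *Eif4ebp1*, but its quiescent and activated values overlapped after centring, and it did not pass the test (0.41 against quiescent, adjusted p = 0.105). With the genome-wide background it did (0.92, adjusted p = 0.00537). *Eif4g1* and *Eif4g3* (6.44 and 6.50, 8.88 and 5.85, 8.06 and 9.84) were open throughout. The expression of the paralogs was not measured in these files.

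Other sites lay in the bodies of these genes. Merged ATAC sites that overlapped a member and none of its promoter windows numbered 57, in 27 of 65 genes (41.5%), beside 45.3% of all genes. Of these, 32 had a peak in a single library (56.1%, all genes 34.5%). In 25 of the 32 that library was a reactivated one. The reactivated lists are the longest and this share was not computed over all genes, so it is no trait of the members. A site present in at least 2 libraries was found in 14 of 65 members (21.5%), against 37.4% of all genes. Scaled to length, this was 1.82 such sites per 100 kb of gene body, beside 3.06 over all genes. Sites shared by quiescent and activated NSPCs numbered 5 (8.77%, all genes 24.2%), quiescent-specific sites 1 (1.75%, all genes 7.74%), activated-specific sites 2 (3.51%, all genes 4.67%) and sites of the reactivated libraries only 6 (10.5%, all genes 15.9%). The other 11 had mixed patterns (all genes 13.1%).

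The strongest activated-specific site lay in an intron of *Eif2ak3* (chr6:70872188-70872521), 27839 bp from the 5′ end. It had no peak in the quiescent libraries, 10.5 and 5.85 in the activated and 6.00 and 9.58 in the reactivated. This site was open in all 4 libraries grown with EGF and without BMP4 at collection. The other activated-specific site overlapped coding sequence of *Eef2k* (chr7:120902989-120903338) at 3.05 and 2.57, with a peak of 6.00 in the first reactivated library. The quiescent-specific site overlapped a UTR of *Eif4e* (chr3:138558595-138558895) at 4.34 and 2.75 and had a peak of 5.85 in the second reactivated library.

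Of the sites in both reactivated libraries only, 2 lay in introns of *Eif4g3*, which encodes a scaffold related to eIF4G1, at chr4:138036984-138037439 (6.72 and 8.91) and chr4:138084787-138085466 (7.26 and 7.18). *Eif2ak1*, the heme-regulated eIF2 kinase, had such a site over a UTR (chr5:143902181-143902521, 7.07 and 7.71), and weaker ones lay in introns of *Eif2ak3* (4.67 and 5.19), *Eef2k* (4.54 and 3.06) and *Eif3h* (3.74 and 3.19). The lists of the reactivated libraries are longer, and with lists of equal length there were 3 such sites of 22 (13.6%), against 3.67% over all genes, which turns the relation to all genes. At a −log10 q of at least 10 there were 8 of 22 (36.4%), against 24.9%. Among the shared sites, that at the 3′ end of *Eef2* (9.68 and 9.67, 12.0 and 7.82, 10.1 and 11.3) also covers the starts of *Dapk3* and *4930442H23Rik*, and that at the 3′ end of *Eif4ebp3* had 7.88 and 6.70, 9.45 and 10.6, and 8.05 and 6.45.

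Windows of 201 bases around the middle of the intronic sites of *Eif2ak3* and *Eif4g3* are printed as the strongest intronic sites of their classes, with capitals for matches to TGANTCA (an AP-1 motif), CAGCTG (an E-box) and TTGGC (an NFI core) on either strand, motifs chosen after the sites were seen. Over all gene-body sites of all genes, 8.18% of windows held TGANTCA, 23.2% CAGCTG and 45.5% TTGGC. Of the members' 57 windows, 14.0%, 24.6% and 33.3% did. The *Eif2ak3* window holds TGACTCA, the first *Eif4g3* window holds none of the motifs, and the second holds CAGCTG and TTGGC. The windows follow the middle of each site and not its summits. Summits of the first *Eif4g3* site, at 138037307 and 138037318, lie at or just past the end of its window. Those of the second, at 138085034 and 138085068, lie near the start of its window.
Eif2ak3 chr6:70872254-70872454 (plus strand): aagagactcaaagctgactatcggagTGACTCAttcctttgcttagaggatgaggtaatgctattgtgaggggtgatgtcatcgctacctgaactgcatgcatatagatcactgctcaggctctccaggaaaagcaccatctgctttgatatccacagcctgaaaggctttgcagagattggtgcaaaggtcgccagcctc
Eif4g3 chr4:138037111-138037311 (plus strand): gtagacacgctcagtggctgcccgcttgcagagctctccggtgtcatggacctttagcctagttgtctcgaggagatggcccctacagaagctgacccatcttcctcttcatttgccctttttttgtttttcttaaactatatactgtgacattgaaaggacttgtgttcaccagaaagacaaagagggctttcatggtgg
Eif4g3 chr4:138085026-138085226 (plus strand): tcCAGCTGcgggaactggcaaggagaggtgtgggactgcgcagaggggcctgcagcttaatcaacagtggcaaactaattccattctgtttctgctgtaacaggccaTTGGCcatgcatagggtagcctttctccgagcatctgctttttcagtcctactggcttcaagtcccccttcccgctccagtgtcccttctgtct

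**Figure D5:**
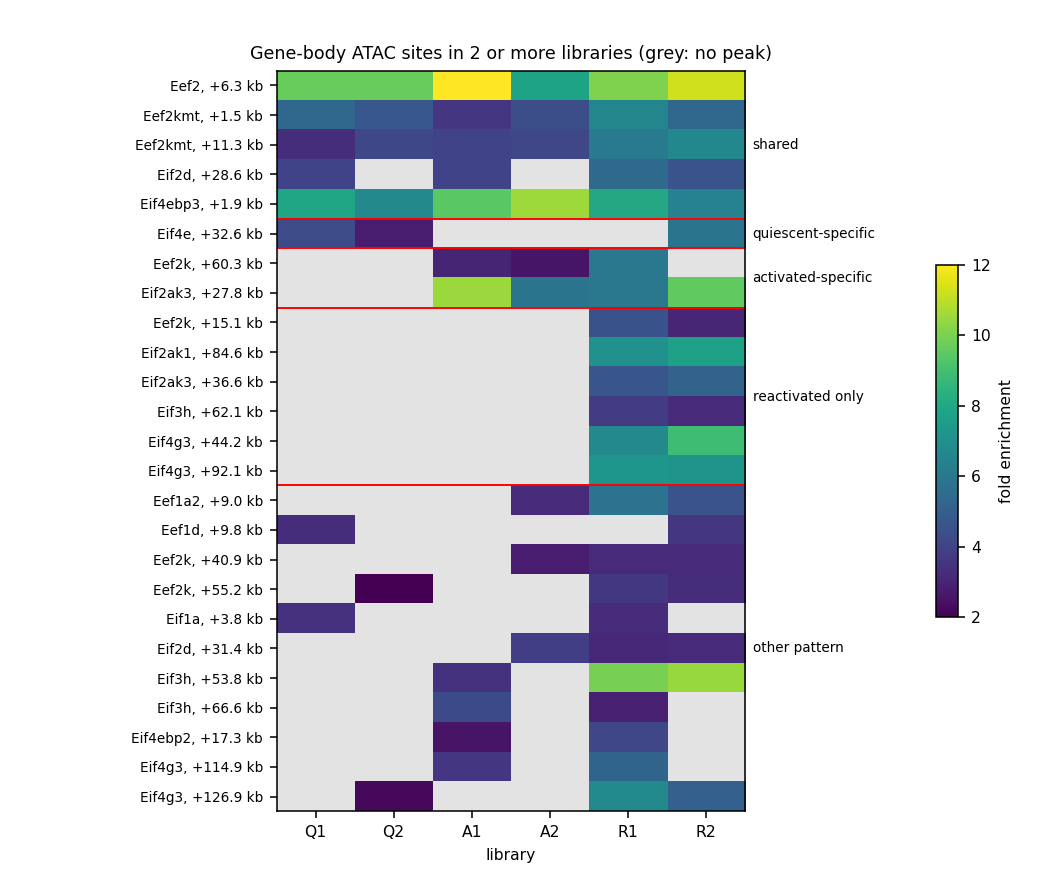
ATAC fold enrichment at the 25 gene-body sites called in at least 2 libraries, by library (Q quiescent, A activated, R reactivated), labelled by gene and distance from its 5′ end and grouped by class between the red lines. Grey cells have no peak; the shared site of *Eef2* reaches 12.0 and the 6 sites of the reactivated libraries lie between 3.06 and 8.91.

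RefSeq windows of 300 bases, from 250 before to 50 after a start, were found for 49 of the 65 members. The motifs were searched on both strands and may overlap. GGGCGG (a GC box) was in 73.5% of the members, beside 51.7% of 15687 genes with a window and 71.4% of the 8885 that also had a promoter peak in all 6 libraries. CCGGAAG (an ETS motif) was in 32.7%, beside 13.6% and 20.8%, and CACGTG (an E-box) in 26.5%, beside 9.22% and 11.8%. CCAAT was in 34.7%, beside 41.7% and 44.0%, and TATAAA in 8.16%, beside 14.4% and 7.57%. At 40 to 20 bases before the start, where a TATA box acts, 0 of 49 members had TATAAA, beside 3.05% and 1.17%.

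A C followed by 4 pyrimidines within 5 bases of the start, the form of a terminal oligopyrimidine start, was in 12 of 49 members (24.5%), among them *Eef1a1*, *Eif3f* and *Eif3l*, beside 22.0% and 23.1%. AAGATGG was in 12.2%, beside 7.27% and 8.41%. TGACGTCA (a CRE), TGATGNAA and the 10-letter motif of NRF1 were each in 1 member, and that of ZBTB33 in 0. The median GC content was 62.0%, beside 57.2% and 61.7%. These are matches of letters and not bound sites, and no match speaks only of these windows.

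Other genes of translation were described for comparison. Of 35 cytosolic partners and regulators, such as the poly(A)-binding proteins, release factors and the TOR pathway, 33 had a promoter peak in all 6 libraries. In reactivated NSPCs 0 were higher and 4 lower against quiescent, and 0 were higher and 4 lower against activated. These are 12.1% of the genes tested in both comparisons, beside 26.5% and 12.3% of all genes. At an unadjusted p under 0.05 there were 11 and 8 of the 33 genes, beside 41.9% and 31.1% of all genes. *Larp1*, which represses mRNAs with oligopyrimidine starts, was lower in both (-0.54, adjusted p = 0.0285, and -0.68, adjusted p = 0.0231). So was *Mknk2* (-0.78, adjusted p = 0.00656, and -0.55, adjusted p = 0.0367). *Dohh*, which completes the hypusine modification of eIF5A, was lower against quiescent (-0.52, adjusted p = 0.0414). Of 9 mitochondrial translation factors, 7 had a peak in all 6 libraries, and 1 was higher (*Gfm2*) and 1 lower (*Mtrf1l*) against quiescent (28.6%, all genes 26.5%). Against activated, *Mtif2* was higher (0.72, adjusted p = 0.0318), which is 14.3% of those tested, beside 12.3%. In activated against quiescent NSPCs limma called 0 genes of either list, and at an unadjusted p under 0.05 there were 2 of 33 and 1 of 7, beside 17.4% of all genes. As for the members, the downward values are relative to the median promoter.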

How the data were processed

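NSPCs were profiled by ATAC-seq (6 libraries) and H3K4me3 ChIP-seq (2 libraries, with 2 inputs) among 10 samples. The authors trimmed reads with Trim Galore 0.4.0, aligned them to mm10 with Bowtie2 2.2.5, removed duplicates with Picard 1.88 and SAMtools 1.3.1 and called peaks with MACS for each library on its own, with the reactivated reads down-sampled first per the peak names; H3K4me3 peaks were called against input. Tool versions follow the submitters' processing notes. Each deposited list gives a fold enrichment, which is a ratio to the local background and is not scaled between libraries. The −log10 p and q deposited by the authors grow with depth within a library. The score that the authors deposited is 10 times the −log10 q and was not used. The deposited summit offset gave summit positions. The study's methods give an approximate read depth per sample. In the deposited lists depth shows only through pileups, which were recovered from fold enrichment and p for at least 99.97% of the peaks of each list.

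For each gene, the highest fold enrichment among peaks overlapping 1 kb either side of any GENCODE M21 start was taken, by an overlap of 1 bp. Its log2, centred on the library's median over tested genes, was fitted with limma 3.58.1 (R 4.3.3) over 11331 genes with a peak in all 6 libraries, with 1 shared spread and Benjamini-Hochberg adjustment over all genes. Values are not counts, so the count-based test of the study's methods could not be used. The median SD between the 2 libraries of a state was 0.119, 0.126 and 0.088 in quiescent, activated and reactivated NSPCs on the log2 scale, and p-values measure the spread between these samples. On data simulated for activated against quiescent with 11331 genes, 26% of genes changed by 0.5, 98% by 1 and 100% by 1.5 or 2 were called, with 15 false calls, so changes near 0.5 were often below detection. The simulated noise was normal with the fitted spread of each gene, so recovery in the measured libraries may be lower and was not tested. Peak presence, H3K4me3 (past 1.25-fold after centring) and gene-body sites had no test. Overlapping or abutting peaks were merged into sites. Sites found in quiescent and in activated NSPCs were shared, those found in both libraries of 1 of these states and absent from the other were state-specific, and those found in both reactivated libraries and nowhere else were reactivated only. Copies of promoter sequence elsewhere were searched with BLAST 2.17.0. Sequences came from RefSeq for GRCm38.p6, and protein sequences were not used here. Python 3.11.15 was used for the other steps.

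The members, gene lists, tests and alternatives were chosen with earlier results of these data known. Genes are named if called by limma, lacking a promoter or H3K4me3 peak, past the H3K4me3 fold, among the 3 highest or lowest or the highest of their role, holding a strong state-specific site or belonging to a listed paralog set (47 of 65); others are named after their values were seen. Alternatives were other windows and starts, stricter or equal-length lists, no centring, quantile normalization, genes with missing values, a trend, a replicate block, other rules for sites and each library left out.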

Additional observations from a re-analysis of the deposited data

How the results depend on the processing

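Directions of most downward calls against quiescent depend on the scaling, as does whether any downward call in reactivated NSPCs is made. With no centring, reactivated against activated gave 19 members higher (32.2%, all genes 49.5%) and 0 lower, and reactivated against quiescent 30 higher (50.8%, all genes 66.5%) and 0 lower; *Eif3e* (0.16), *Eef1d* (0.05), *Eif4b* (0.09), *Eif3j1* (0.21), *Eif2a* (0.22), *Eif2b4* (0.14), *Eif3f* (0.04) and *Eif4g2* (0.12) then had values above 0. H3K4me3 without centring had 0 members higher in activated (all genes 4.79%) and 7 higher in quiescent NSPCs (11.5%, all genes 22.6%). A trend in the variance gave 2 members lower in activated than quiescent NSPCs (3.39%, all genes 1.35%), 3 higher (5.08%, all genes 8.21%) and 7 lower (11.9%, all genes 8.81%) in reactivated than activated, and 17 lower than in quiescent (28.8%, all genes 18.0%). At a −log10 q of at least 10, *Eif2d*, *Eif3c* and *Eif1b* lacked a peak in a library and were not tested. Of the 51 members left, 0 were lower in activated than quiescent (all genes 0.273%), with 7 at an unadjusted p under 0.05 (13.7%, all genes 15.3%). In reactivated against activated 2 were higher (3.92%, all genes 6.12%) and 4 lower (7.84%, all genes 6.50%). Against quiescent 1 was higher (1.96%, all genes 11.1%) and 9 lower (17.65%, all genes 14.1%). Quantile normalization gave 2 members higher in reactivated than activated (3.39%, all genes 8.49%). With the pileup over the genome-wide background, an alternative chosen after seeing the data, 1 member (*Eif4enif1*) was higher in activated than quiescent (1.7%, all genes 1.93%) and 1 lower (all genes 1.27%). In reactivated against activated 0 were higher (all genes 3.17%) and 3 lower (5.08%, all genes 2.82%). Against quiescent 10 were lower (16.9%, all genes 7.23%), 6 of the 14 calls being kept.

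Leaving out each library in turn, where the lone library of a state is assumed to vary like the others, gave 0 members lower in activated than quiescent in every case (all genes at most 0.219%). In both comparisons of reactivated NSPCs, fewer members were called whenever a library of a compared state was left out. Omitting either quiescent library left 1 member higher (all genes 7.91% and 7.78%) in reactivated than activated. There 4 were lower (6.78%, all genes 5.82% and 5.74%). Omitting the first or second activated library left 4 and 3 higher than in quiescent (6.67% and 5.08%, all genes 14.3% in both). There 11 were lower in both (18.3% and 18.6%, all genes 15.1% and 14.8%). Calls over all genes also fell without the first reactivated library, where 0% were higher or lower than in activated, and 1.44% higher and 0.706% lower than in quiescent. The replicate numbers did not pair the libraries (correlation of same-numbered deviations 0.002, 0.034 and -0.021). With a replicate block there was 1 member lower in activated than quiescent (1.69%, all genes 0.424%), 1 was higher (all genes 6.72%) and 4 lower (6.78%, all genes 4.58%) in reactivated than activated, and 3 were higher (5.08%, all genes 12.9%) and 9 lower (15.3%, all genes 12.4%) than in quiescent. Under the block *Eif4e* lost its call against activated and *Eef2* gained one, and *Eif2a* and *Eif3j1* lost theirs against quiescent.

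Gene-body sites depend on list length. At a −log10 q of at least 10 there were 3 shared (13.6%, all genes 20.8%), 0 quiescent-specific (all genes 6.29%), 1 activated-specific (4.55%, all genes 5.23%) and 8 reactivated-only sites (36.4%, all genes 24.9%). With lists of equal length there were 1 activated-specific (4.55%, all genes 8.66%) and 3 reactivated-only sites (13.6%, all genes 3.67%). Requiring at least 50% of a site inside the gene gave 3 shared sites (5.45%, all genes 24.0%). Requiring sites outside the windows of every gene also gave 3 (5.66%, all genes 23.2%). Leaving out each library in turn, quiescent-specific sites ranged from 1 to 7, activated-specific from 2 to 6 and reactivated-only from 6 to 19, since a class then rests on 1 library. Quiescent-specific sites were 7 without the first quiescent library (12.5%, all genes 16.8%) and 5 without the second (9.43%, all genes 14.8%). Activated-specific sites were 6 without the first activated library (10.5%, all genes 7.62%) and 6 without the second (10.9%, all genes 11.0%). Reactivated-only sites were 19 without the first reactivated library (42.2%, all genes 31.8%) and 19 without the second (42.2%, all genes 32.1%). The relation to all genes thus turns for reactivated-only sites and, without the first activated library, for activated-specific sites. The number of members with a peak in every library and with H3K4me3 in both states stayed within 1.5 times its value in each alternative run. Differences at peaks below the lowest called pileup were not detectable, and 1 H3K4me3 library per state leaves no replicate check.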
